A study of Mus musculus with 30 samples.

Results

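The 9 genes described here are Cpt1a, Cpt1b, Acadm, Acadl, Pdk4, Angptl4, Plin2, Ucp2 and Ucp3. They belong to fatty acid oxidation or are known targets of the peroxisome proliferator-activated receptors (PPARs). They were chosen by name, with earlier results of these data known, from the 43629 genes of the read count table, and each had a row there. RNA was sequenced from the fracture callus, the repair tissue that bridges a broken bone, of male C57BL/6J mice that were 20 weeks old and had an open fracture of the tibia held by an intramedullary nail. Calli of lean mice were taken 3, 5, 7 and 10 days after fracture (written d3 to d10). Calli of diet-induced obese (DIO) mice, which received a high-fat diet until harvest, came from the same days and also from d14 and d21. Each of the 10 groups held 3 libraries, and each library came from 1 callus. Apart from diet, the groups shared strain, sex and surgery, and no unfractured bone was sequenced. The diets could be compared on 4 days only, since later lean calli were not analysed here.

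Fatty acids enter mitochondria as carnitine esters made by the CPT1 enzymes, and acyl-CoA dehydrogenases then take the first step of each round of beta-oxidation. PPARs are nuclear receptors that bind fatty acids and, as partners of retinoid X receptors, switch on genes for the uptake, storage and oxidation of fat. In muscle, heart and liver many of their targets rise in fasting, and fat cells and macrophages also rely on PPARs.

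PPARs bind a pair of AGGTCA half-sites in the same direction with 1 base between them, an arrangement called DR1. RefSeq promoter sequences of build GRCm38.p6, from 250 bases before to 50 bases after the start, were matched by symbol for 7 of the 9 genes. Cpt1b and Angptl4 were not among them. The AGGTCA half-site, read on both strands, lay in 4 of the 7 windows (Cpt1a, Acadm, Plin2 and Ucp3) and in 16.26% of all 32851 promoter windows. No member had an exact DR1, which 0.04% of all windows held. A DR1 with up to 2 mismatches over the 12 half-site bases, which takes in some of the same half-sites, lay in the windows of Plin2 and Ucp3 and in 3.86% of all windows. The 250 bases before the start are shown for these 2 genes, because they hold the closest matches, and for Ucp2, because it is the tandem neighbour of Ucp3 and its RNA behaved differently. Half-sites and DR1 matches are in capitals, and each sequence runs 5′ to 3′ on the strand of the gene. The Plin2 stretch is chr4:86670060-86670309 (minus strand), that of Ucp3 is chr7:100472741-100472990 and that of Ucp2 is chr7:100493108-100493357 (both plus strand).
Plin2: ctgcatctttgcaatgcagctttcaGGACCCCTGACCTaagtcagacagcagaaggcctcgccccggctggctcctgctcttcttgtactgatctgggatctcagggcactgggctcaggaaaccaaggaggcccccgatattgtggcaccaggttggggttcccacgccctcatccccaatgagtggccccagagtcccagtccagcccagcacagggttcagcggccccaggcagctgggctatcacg
Ucp3: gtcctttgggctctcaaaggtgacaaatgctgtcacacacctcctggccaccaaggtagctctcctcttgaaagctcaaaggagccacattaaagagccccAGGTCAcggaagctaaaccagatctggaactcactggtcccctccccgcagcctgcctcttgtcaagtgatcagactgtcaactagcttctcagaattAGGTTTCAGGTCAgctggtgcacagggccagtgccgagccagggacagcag
Ucp2: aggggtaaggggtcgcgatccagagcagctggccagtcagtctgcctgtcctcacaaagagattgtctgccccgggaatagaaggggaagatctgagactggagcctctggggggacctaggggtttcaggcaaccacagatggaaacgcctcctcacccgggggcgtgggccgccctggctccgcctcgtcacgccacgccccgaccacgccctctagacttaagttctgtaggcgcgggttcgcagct
The Plin2 match lay on the minus strand relative to the gene, and its first base was at -225 from the start. The Ucp3 match lay on the plus strand at -51. These are matches of letters only, and no binding was measured. The 7 windows had 55.0% to 70.33% G and C, against a median of 52.67% over all windows, and 5 to 34 CpG pairs, against a median of 7. Ucp3 had the fewest CpG pairs and Acadl the most.

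Between 13247122 and 26365620 reads were counted on genes per library, and levels are given as CPM (reads of a gene relative to all reads counted in the library, scaled with TMM factors). Markers of cartilage and bone cells were present in every callus: the summed level of 7 chondrocyte genes ran from 781 to 73631 CPM and that of 6 osteoblast genes from 13856 to 69935 CPM. Col1a1 was the most abundant of the 6 osteoblast genes. Skeletal muscle was present too, and 11 genes of adult muscle fibres summed to between 496 and 33438 CPM. Lean d10 replicate 1 stood apart from the other lean d10 calli, with a muscle sum of 1313 against 18899 and 13004 CPM and a chondrocyte sum of 73631 against 16997 and 16251 CPM. DIO d21 replicate 1 held the lowest muscle sum of all. In whole callus RNA, fewer cells of a type and less RNA per cell cannot be told apart.

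Of the 9 genes, 8 were read in every library with at least 31 counts. The exception was Cpt1b, the CPT1 of muscle and heart (chromosome 15, 89416405 to 89425863). It had between 0 and 20 counts, no count in 3 libraries, and at least 3 counts in 21 of 30. Its exons are shared over 2744 of 3372 bases with the readthrough gene Gm44502 on the same strand, so reads of both could have been left uncounted. Per kilobase of exon, Ucp2 had the highest level, with 63.0 ± 25.2 CPM (SD over the 30 libraries). Acadl followed with 50.6 ± 10.3 CPM per kilobase and Angptl4 with 49.6 ± 26.2 CPM per kilobase, which differed by less than their spread. Plin2 had 38.6 ± 12.7, Pdk4 24.7 ± 10.6, Acadm 17.7 ± 4.58 and Cpt1a 12.1 ± 2.57 CPM per kilobase. Ucp3 had 6.75 ± 3.81 CPM per kilobase and Cpt1b 0.0947 ± 0.0853 CPM per kilobase. With the length of the longest transcript in place of all exons, Plin2 moved from the fourth to the second place with 71.8 CPM per kilobase, and Ucp2 stayed first with 110 CPM per kilobase. Among the 8 genes read in every library, the range was widest for Ucp3, whose highest level was 27.5 times its lowest, and smallest for Acadl with 2.27 times.

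**Figure D1:**
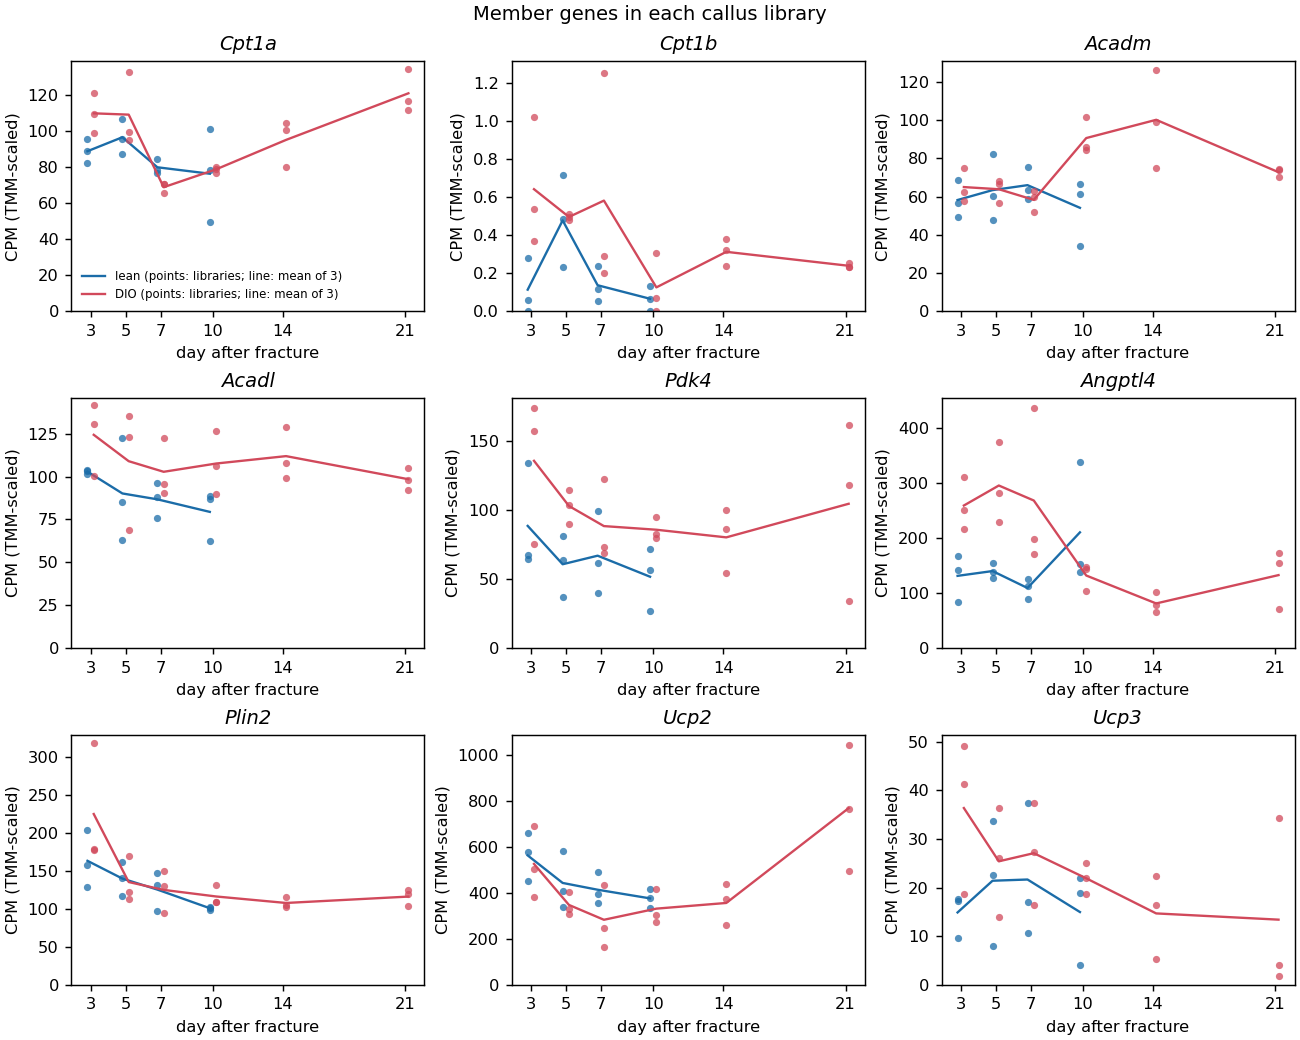
TMM-scaled CPM (linear axis from 0) of the 9 genes against the day after fracture, with 1 point per library and a line through the means of 3, for lean (blue, d3 to d10) and DIO (red, d3 to d21). Angptl4 lay higher in all DIO libraries than in all lean libraries on d3, d5 and d7 and not on d10, and Ucp2 and Cpt1a were highest in DIO on d21.

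Angptl4 encodes a secreted inhibitor of lipoprotein lipase, the enzyme that frees fatty acids from circulating fat, and lies on chromosome 17 (33773750 to 33781830). In lean calli it was read at 167, 84.2 and 142 CPM on d3, at 154, 127 and 138 CPM on d5, and at 126, 113 and 88.4 CPM on d7. In DIO calli it was read at 311, 216 and 250 CPM on d3, at 282, 230 and 374 CPM on d5, and at 198, 436 and 170 CPM on d7. On each of these days the lowest DIO library lay above the highest lean library, which held for 10.5%, 10.8% and 9.95% of all genes on d3, d5 and d7. On d10 the order changed. The 3 lean calli had 339, 139 and 153 CPM and the 3 DIO calli 103, 144 and 147 CPM, which overlapped. In DIO calli the level then was 77.3, 64.7 and 101 CPM on d14, the lowest group, and 173, 154 and 71.3 CPM on d21.

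The diets were compared within each day with the quasi-likelihood test of edgeR on the counts, with p-values adjusted over all genes tested and a threshold of 0.05. Angptl4 was 1.96-fold higher in DIO on d3 (log2 fold change 0.97 ± 0.25, SE, adjusted p = 0.149), 2.11-fold higher on d5 (1.08 ± 0.18, adjusted p = 0.0458) and 2.48-fold higher on d7 (1.31 ± 0.33, adjusted p = 0.0763). Without DIO d7 replicate 2, the callus with 436 CPM, the d7 value was 0.78 (adjusted p = 0.101). On d10 the log2 fold change was -0.67 ± 0.34 (adjusted p = 0.686), and without lean d10 replicate 1, the callus with 339 CPM, it was -0.16. Only the d5 difference passed the threshold, and there Angptl4 was the 1 member called of 8 tested, against 1.08% of all genes on that day. The d5 call was lost when any of 5 of the 6 calli was left out and kept without lean d5 replicate 3, with adjusted p-values from 0.0323 to 0.213. Averaged over d3 to d10 in 1 fit of 24 libraries, Angptl4 was 1.60-fold higher in DIO (log2 fold change 0.67 ± 0.17, adjusted p = 0.0399). Here again it was the 1 member called, of 9 tested, where 2.46% of all genes passed. This call was lost in 16 of the 24 fits that left out 1 library, with adjusted p-values up to 0.0869.

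When the day was fitted as a curve of degree 2, all terms of diet were tested together, so that a constant shift between diets counted as well as a different course. Angptl4 was the 1 member that passed (edgeR, adjusted p = 0.00922), where 8.13% of all genes did. This call stayed in each of the 24 fits that left out 1 library, with adjusted p-values between 0.00303 and 0.0239. A test of any change of the diet difference between the 4 days, without a curve, gave an adjusted p of 0.0785 and called no member, against 1.65% of all genes. The change from d7 to d10 alone, a contrast chosen after seeing the data, was -1.98 ± 0.49 on the log2 scale (adjusted p = 0.0234), where 5.07% of all genes passed. That last call was lost without lean d10 replicate 1, lean d7 replicate 2, lean d7 replicate 3, DIO d7 replicate 2 or DIO d10 replicate 1, and without lean d10 replicate 1 the change was -1.45 (adjusted p = 0.101).

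The summed level of the chondrocyte markers was set beside that of Angptl4. On d7 it lay between 16217 and 38266 CPM in DIO and between 5721 and 16780 CPM in lean calli, and on d10 between 4861 and 9383 CPM in DIO and between 16251 and 73631 CPM in lean calli. On d3 the sums overlapped, with 781 to 1800 CPM in DIO and 918 to 1486 CPM in lean calli, and so did those of d5, the day of the Angptl4 call, with 8678 to 16727 CPM in DIO and 2536 to 11185 CPM in lean calli. Angptl4 and the chondrocyte sum had the same highest library in 2 of 10 groups and the same lowest in 2. With 3 libraries a group, unrelated orders would share the highest library in 1 of 3 groups on average, and likewise the lowest. Lean d10 replicate 1 held both the highest chondrocyte sum of all libraries and the highest Angptl4 of the lean ones. The library with the highest Angptl4, DIO d7 replicate 2, had the lowest chondrocyte sum of its group. All 7 chondrocyte markers were read in at least 1 library and 6 of them in every library. Their part in the Angptl4 result was not tested. The 3 genes whose log2 CPM followed Angptl4 most closely over the 30 libraries were Creld2 (Pearson r = 0.85), Pdia6 (r = 0.84) and Dnajb11 (r = 0.83), all of which encode proteins of the endoplasmic reticulum. The 9 adipocyte markers summed to 113 to 155 CPM in DIO and 120 to 195 CPM in lean calli of d5. On d7 they summed to 159 to 189 CPM in DIO and 169 to 228 CPM in lean calli, and their part was not tested either.

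**Figure D2:**
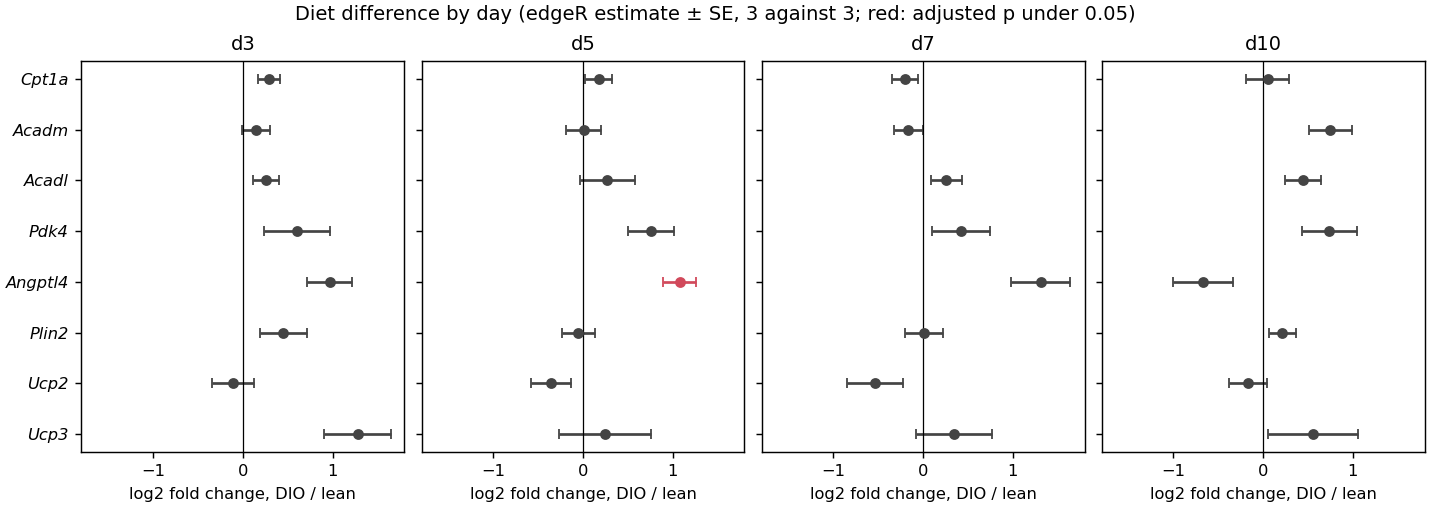
Log2 fold change between DIO and lean calli (edgeR estimate with SE, 3 libraries against 3) of the 8 genes tested, in 1 panel per day, with the differences at an adjusted p under 0.05 in red. Angptl4 lay between 0.97 and 1.31 on d3, d5 and d7 and at -0.67 on d10, and only its d5 value was called. Its d7 value was 0.78 without DIO d7 replicate 2 and its d10 value -0.16 without lean d10 replicate 1.

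No other member differed between diets at the threshold on any day. On d3, 0 of 8 members were called, as were 0.0% of all genes by edgeR, although 3 members and 2374 of all genes had an unadjusted p under 0.05. DESeq2 called 2 members on that day, Angptl4 and Ucp3, among 726 genes. On d7, 0 of 8 members were called, against 2.32% of all genes, and 1 member had an unadjusted p under 0.05. DESeq2 called Angptl4 alone among the members on d7. On d10, 0 of 8 were called, against 0.0% of all genes, and 2 members and 1082 of all genes had an unadjusted p under 0.05. DESeq2 called 0 members and 41 genes on d10. The median log2 difference of the 8 members from d3 to d10 was 0.37, 0.21, 0.14 and 0.33, while that of all genes lay within 0.02 of 0 on each day.

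Pdk4 encodes a kinase that shuts down pyruvate dehydrogenase and so spares glucose when fat is burned (chromosome 6, 5483351 to 5496309). It was read at 81.2, 63.9 and 37.4 CPM in lean calli of d5 and at 90.3, 104 and 115 CPM in DIO calli. On d10 it was read at 27.1, 56.6 and 71.5 CPM in lean and at 94.9, 82.9 and 79.7 CPM in DIO calli. On these 2 days the DIO libraries lay wholly higher, as for 10.8% of all genes on d5 and 7.11% on d10. On d3 and d7 the diets overlapped. From d3 to d10 the log2 fold changes were 0.60 ± 0.37, 0.76 ± 0.26, 0.42 ± 0.32 and 0.74 ± 0.31 (edgeR, adjusted p = 0.474, 0.175, 0.576 and 0.686). Averaged over the days it was 0.63 ± 0.19, a 1.55-fold difference with an adjusted p of 0.0775. DESeq2 called this average (adjusted p = 0.0254), and over 28 alternatives the adjusted p ran from 0.0254 to 0.156 with the same direction in all 28. Without lean d10 replicate 1 the d10 difference was 0.41 (adjusted p = 0.899).

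Acadl and Acadm encode the acyl-CoA dehydrogenases for long and medium chains. Acadl (chromosome 1, 66830839 to 66863277) had 62.5, 88.9 and 86.8 CPM in lean and 90.0, 127 and 106 CPM in DIO calli of d10, which did not overlap. Its log2 fold changes were 0.26, 0.27, 0.26 and 0.45 from d3 to d10, and 0.31 ± 0.12 on average (edgeR, adjusted p = 0.143). The d10 value was 0.29 without lean d10 replicate 1. Acadm (chromosome 3, 153922357 to 153944632) had 34.4, 61.4 and 66.7 CPM in lean and 84.5, 102 and 85.8 CPM in DIO calli of d10, again without overlap. The difference of Acadm on d10 was 0.75 ± 0.24 on the log2 scale (adjusted p = 0.686), and 0.49 without lean d10 replicate 1. On d10 the libraries of 4 members, Acadm, Acadl, Pdk4 and Plin2, lay wholly higher in DIO, against 7.11% of all genes. On the same day the muscle fibre sum was 24813 to 33438 CPM in DIO and 1313 to 18899 CPM in lean calli, also without overlap.

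Cpt1a, which encodes the CPT1 of liver and most tissues, lies on chromosome 19 (3322334 to 3385733). It was read at 95.5, 89.1 and 82.2 CPM in lean calli of d3 and at 121, 110 and 98.9 CPM in DIO calli. On d7 it was read at 77.0, 84.5 and 78.4 CPM in lean and at 70.8, 70.5 and 65.5 CPM in DIO calli. The libraries of the diets thus lay apart on both days, with DIO higher on d3 and lower on d7, where the libraries of 12% of all genes lay wholly lower in DIO. The log2 fold change was 0.29 ± 0.12 on d3 (edgeR, adjusted p = 0.317) and -0.20 ± 0.14 on d7 (adjusted p = 0.546). The test of any change of the diet difference over the 4 days gave an adjusted p of 0.537. On d3 the libraries of 3 of the 8 tested members, Cpt1a, Angptl4 and Ucp3, lay wholly higher in DIO, against 10.5% of all genes.

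Plin2 encodes a protein that coats lipid droplets (chromosome 4, 86648386 to 86670060). It was highest on d3, at 204, 129 and 157 CPM in lean and at 319, 179 and 178 CPM in DIO calli. By d10 it was at 98.5, 101 and 103 CPM in lean and at 109, 131 and 109 CPM in DIO calli. In lean calli Plin2 fell by 0.68 ± 0.20 on the log2 scale between d3 and d10 (edgeR, adjusted p = 0.0239) and was the 1 member called of 8, where 29.3% of all genes passed. This call was lost without lean d10 replicate 1 (adjusted p = 0.0573), lean d10 replicate 2 or lean d3 replicate 1, with adjusted p-values up to 0.105. In DIO calli Plin2 fell by 0.95 ± 0.22 between d3 and d10 (adjusted p = 0.00623), and each of 23 alternatives kept the call, with adjusted p-values up to 0.0469. Over the 30 libraries Plin2 followed Dpep2 (r = 0.82), Havcr2 (r = 0.81) and Msr1 (r = 0.81), of which Msr1 encodes a macrophage scavenger receptor. The sum of 8 monocyte and macrophage markers was 4770 to 5744 CPM on d3 and 2060 to 3126 CPM on d10 in lean calli. In DIO calli it was 2407 to 5182 CPM on d3 and 2903 to 3061 CPM on d10.

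In lean calli no member differed between any of d3, d5, d7 and d10 in the joint test of edgeR, where 19% of all genes did, and 1 member had an unadjusted p under 0.05. DESeq2 also called 0 members. Between d7 and d10 no member was called in lean calli either, against 2.73% of all genes, although the libraries of Angptl4 lay wholly higher on d10, as for 13.6% of all genes, with a log2 fold change of 0.95 ± 0.33 (adjusted p = 0.108). Without lean d10 replicate 1 that value was 0.44. DESeq2 called Angptl4 between these days (adjusted p = 0.0433).

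In DIO calli, where 6 days were sampled, 5 of 8 members differed between days in the joint test, against 59.1% of all genes. They were Angptl4 (adjusted p = 0.000844), Cpt1a (0.00101), Acadm (0.00307), Plin2 (0.00346) and Ucp2 (0.00669). All 5 stayed called in each of the 18 fits that left out 1 library. Between d3 and d10, 4 members were called, against 21.8% of all genes: Plin2, Cpt1a and Angptl4 fell and Acadm rose. Cpt1a fell by 0.47 ± 0.15 (edgeR, adjusted p = 0.0286) and Angptl4 fell by 0.97 ± 0.34 (adjusted p = 0.0497) on the log2 scale. Acadm rose by 0.49 ± 0.17 (adjusted p = 0.0472). Acadm was lost in 11 of the 18 fits that left out 1 library, Angptl4 in 13 and Cpt1a in 4, with adjusted p-values up to 0.178, 0.158 and 0.115.

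Acadm turned upward in DIO calli between d7 and d10. It was read at 59.9, 63.2 and 52.0 CPM on d7 and at 84.5, 102 and 85.8 CPM on d10. The libraries did not overlap, as for 14.0% of all genes that were higher, and the rise was 0.62 ± 0.17 on the log2 scale, or 1.54-fold (edgeR, adjusted p = 0.0199), where 13% of all genes were called and 6.01% were called higher. Acadm was the 1 member called of 8. The call was lost without DIO d10 replicate 2 or DIO d7 replicate 3, with adjusted p-values up to 0.0941. Acadm then was 99.2, 126 and 75.1 CPM on d14 and 70.1, 74.0 and 74.3 CPM on d21. Angptl4 was the other member with an unadjusted p under 0.05 between d7 and d10, with a log2 fold change of -1.04 ± 0.34 (adjusted p = 0.0535). DESeq2 called it (adjusted p = 0.018), and without DIO d7 replicate 2 it was -0.50 (adjusted p = 0.358), with adjusted p-values from 0.018 to 0.358 over 23 alternatives. On d7 the muscle fibre sum of DIO calli was 8601 to 23164 CPM, against 24813 to 33438 CPM on d10.

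Ucp2 and Cpt1a rose late in DIO calli. Ucp2 encodes a mitochondrial carrier with wide expression in white blood cells (chromosome 7, 100493337 to 100502020), and 305 of its 6989 exon bases overlap Dnajb13 on the opposite strand. It was read at 417, 302 and 273 CPM on d10 and at 494, 1044 and 765 CPM on d21. The rise was 2.35-fold (log2 fold change 1.23 ± 0.34, edgeR, adjusted p = 0.00743). Cpt1a was read at 80.3, 77.0 and 79.3 CPM on d10 and at 112, 135 and 117 CPM on d21, a 1.55-fold rise (0.63 ± 0.15, adjusted p = 0.00246). They were the 2 members called of 8, both higher, where 43.4% of all genes were called and 21.7% were called higher. Each was called in all 18 fits that left out 1 library, with adjusted p-values up to 0.0387 for Ucp2 and 0.0133 for Cpt1a. Several marker sums were higher on d21 as well. The sum of 4 pan-leukocyte genes was 623 to 680 CPM on d10 and 1255 to 1795 CPM on d21. That of 6 neutrophil genes was 1469 to 3397 CPM on d10 and 5899 to 16984 CPM on d21. That of 7 erythroid genes was 1995 to 5079 CPM on d10 and 27034 to 38424 CPM on d21. The sums of muscle fibre, chondrocyte and osteoblast markers were lower on d21. The part of these cell types in the rises of Ucp2 and Cpt1a was not tested. Over the 10 groups, the library with the highest Ucp2 had the highest pan-leukocyte sum in 6, and the lowest was the same in 6. Against the monocyte and macrophage sum, the highest library was the same in 7 groups and the lowest in 4. On d21 the lowest Ucp2 was in DIO d21 replicate 1, which had the highest pan-leukocyte sum. For Cpt1a and the pan-leukocyte sum, the highest library was the same in 2 groups and the lowest in 3. Against the neutrophil sum and the erythroid sum, the highest library of Cpt1a was the same in 1 group each and the lowest in 3 each. Among the genes closest to Ucp2 over the 30 libraries were Necap2 (r = 0.86) and Sipa1 (r = 0.86). In lean calli Ucp2 had its highest levels on d3, at 576, 660 and 450 CPM, and 375, 418 and 333 CPM on d10 (log2 fold change -0.56 ± 0.22, adjusted p = 0.072).

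Ucp3, the uncoupling protein of skeletal muscle, lies beside Ucp2 (chromosome 7, 100472990 to 100486432), and its promoter was shown above with that of Ucp2. In lean calli of d3 it was read at 17.7, 9.61 and 17.3 CPM and in DIO calli at 49.1, 18.6 and 41.4 CPM. The DIO libraries lay wholly higher on that day, as for 10.5% of all genes, and the log2 fold change was 1.28 ± 0.37 (edgeR, adjusted p = 0.177). DESeq2 called it (adjusted p = 0.0131), and over 11 alternatives the adjusted p ran from 0.0131 to 0.564. Ucp3 ordered the calli as the muscle markers did. The library with the lowest muscle sum was also the one with the lowest Ucp3 in 10 of 10 groups, and the highest was the same in 8 of 10. In lean d10 replicate 1 it was read at 4.07 CPM, against 22.0 and 18.8 CPM in the other lean d10 calli. In DIO d21 it was read at 1.79, 34.2 and 4.13 CPM, beside muscle sums of 496, 15641 and 2933 CPM. Over the 30 libraries it followed Ryr1 (r = 0.92), Cacna1s (r = 0.92) and Asb16 (r = 0.91), and Ryr1 and Cacna1s encode calcium channels of the muscle fibre. On d3 the muscle sum was 12518 to 22368 CPM in DIO and 9147 to 15630 CPM in lean calli, and its part in the Ucp3 difference was not tested.

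Acadl had the same highest library as the muscle fibre sum in 10 of 10 groups and the same lowest in 7. Against the sum of 5 genes of slow or oxidative fibres, the highest and the lowest library were each the same in 9 groups for Acadl, and in 7 and 8 groups for Ucp3. For Acadm both were the same in 7 of 10 groups, and for Pdk4 the lowest was the same in 8 and the highest in 5. Angptl4 and Ucp2 had the same highest library as the muscle sum in 3 groups each, near the share of unrelated orders. Acadm followed Hadh (r = 0.89), Hibadh (r = 0.88) and Sucla2 (r = 0.88), which encode mitochondrial enzymes. Acadl followed Dusp22 (r = 0.81), Mllt3 (r = 0.78) and Rragd (r = 0.77), and Pdk4 followed Mllt3 (r = 0.72), Fbxo32 (r = 0.72), a ubiquitin ligase of wasting muscle, and Ip6k3 (r = 0.71). For Cpt1a the closest genes were Dnajc16 (r = 0.79), Rbbp6 (r = 0.78) and Macf1 (r = 0.77).

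**Figure D3:**
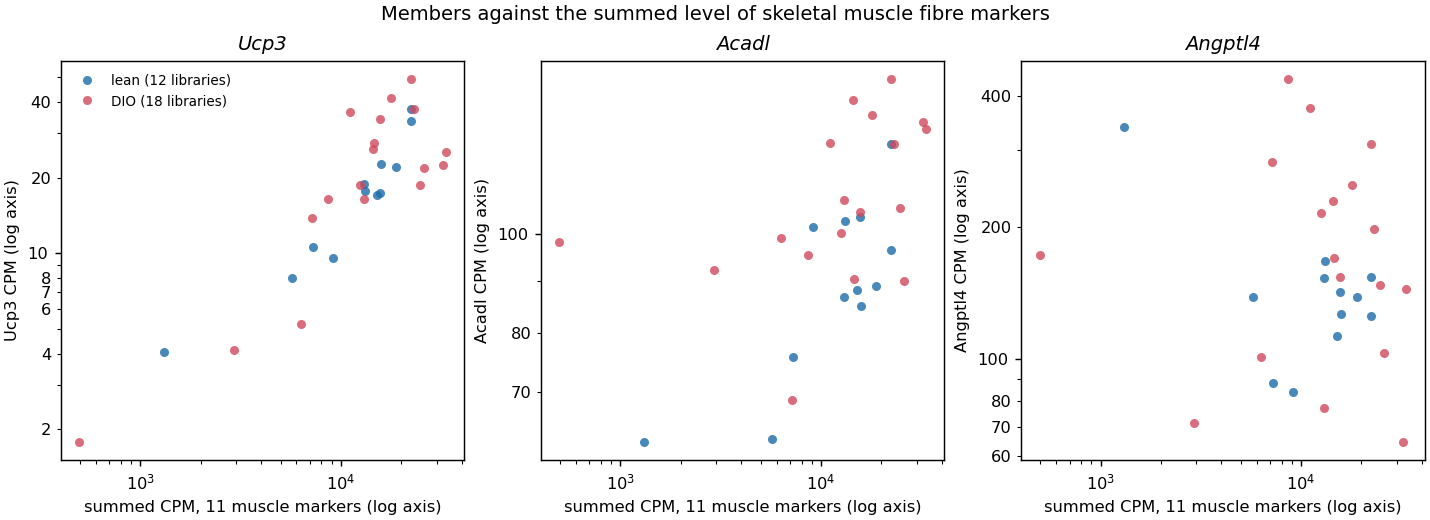
CPM of Ucp3, Acadl and Angptl4 in each library (log axis) against the summed CPM of 11 skeletal muscle fibre genes in the same library (log axis), for 12 lean (blue) and 18 DIO (red) libraries. Ucp3 lay between 1.79 CPM in the library with the lowest muscle sum and 49.1 CPM, while the highest Angptl4, 436 CPM, lay at a muscle sum of 8601 CPM.

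Cpt1b remained near the limit of detection. Its summed counts over 3 libraries were 9, 26, 7 and 3 in lean calli from d3 to d10 and 36, 28, 27 and 5 in DIO calli on the same days. It passed the filter on low counts only in the fits of 24 libraries, where the average log2 difference between diets was 1.32 ± 0.51 (edgeR, adjusted p = 0.149). A level from so few counts gives no more than an order of size of the reads counted. That level would be too low if reads shared with Gm44502 were left uncounted.

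The other enzymes of mitochondrial beta-oxidation were examined as a list of 16 genes, all of which were tested. Averaged over d3 to d10, 2 of the 16 were called, both higher in DIO, where 2.46% of all genes were called: Decr1, which handles unsaturated chains (log2 fold change 0.39 ± 0.09, edgeR, adjusted p = 0.0283), and Slc25a20, the carnitine-acylcarnitine carrier (0.28 ± 0.07, adjusted p = 0.0397). All 16 had a positive average difference, with a median of 0.19 against 0.00 over all genes. All 11 muscle fibre markers had a positive average difference too, with a median of 0.35 and none called, and their part in that of the 16 genes was not tested. With 1 library left out the count lay between 0 and 4, and it was 4 without lean d10 replicate 1.

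The 16 genes were also followed over time within each diet. In DIO calli 12 of 16 differed between days in the joint test, against 59.1% of all genes. From d7 to d10, 5 of 16 rose and none fell, where 13% of all genes were called and 6.01% were called higher. They included Acaa2, the last enzyme of the cycle (1.07 ± 0.16, adjusted p = 0.000199), Etfdh (0.61 ± 0.14, adjusted p = 0.00676) and Acads (0.62 ± 0.17, adjusted p = 0.0247). The median log2 change of the 16 was 0.43, and that of all genes was -0.02. The muscle fibre sum was 8601 to 23164 CPM on d7 and 24813 to 33438 CPM on d10, and its part in the rise was not tested. From d10 to d21, 10 of 16 fell and none rose, against 21.8% of all genes called lower. Decr1 fell by 1.00 ± 0.15 (adjusted p = 9.24e-05), Cpt2, the partner of CPT1 on the inner membrane, by 0.79 ± 0.12 (adjusted p = 0.000107) and Slc25a20 by 0.69 ± 0.15 (adjusted p = 0.00125). Cpt1a, which acts before Slc25a20 and Cpt2 in the same path, rose over the same days. On d21 the muscle fibre sum was 496 to 15641 CPM, and its part in the fall was not tested. Without DIO d21 replicate 1, 9 of the 16 genes still fell. The other d21 calli had muscle sums of 15641 and 2933 CPM, also below those of d10. In lean calli 3 of 16 differed between days in the joint test, against 19% of all genes. Between d7 and d10, 0 of 16 were called in lean calli, against 2.73% of all genes. Even so, 15 of the 16 had a positive log2 change there, with a median of 0.35 against -0.01 over all genes. Between d3 and d10, 5 of 16 rose in lean calli, against 15.2% of all genes called higher. They were led by Acads (0.88 ± 0.16, edgeR, adjusted p = 0.00229), Acaa2 (1.20 ± 0.23, adjusted p = 0.00303) and Eci2 (0.63 ± 0.12, adjusted p = 0.00355).

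Of the PPARs and their partners, 11 of 12 genes were tested. On d7, 1 of 11 was called between diets, against 2.32% of all genes: Pparg, the PPAR of fat cells and macrophages, was lower in DIO, at 0.383 of the lean level (log2 fold change -1.39 ± 0.28, edgeR, adjusted p = 0.0368). Pparg was read at 11.7, 12.6 and 8.40 CPM in lean and at 3.70, 3.51 and 5.14 CPM in DIO calli of d7. Between d7 and d10 it rose in DIO calli by 1.52 ± 0.21 (adjusted p = 0.000145), and averaged over d3 to d10 it was lower in DIO (-0.65 ± 0.14, adjusted p = 0.0283). The d7 call was lost in some fits that left out 1 library, in which 0 or 1 of the 11 genes were called. The change of the diet difference from d7 to d10 was 2.03 ± 0.41 for Pparg (adjusted p = 0.00707), opposite in direction to that of Angptl4. Ppard, the most widely expressed PPAR, fell in DIO calli by 1.20 ± 0.27 between d3 and d10 (adjusted p = 0.00497). On d7, 1 of 5 tested adipocyte markers was called lower in DIO, Adipoq (-1.85 ± 0.35, adjusted p = 0.0293). Of 8 monocyte and macrophage markers 3 were called lower, among them Csf1r (-1.02 ± 0.19, adjusted p = 0.0273). All 5 tested markers of osteoclasts, the cells that resorb bone, were called lower in DIO on d7 as well, and their median log2 difference was -1.30. The 6 osteoclast markers summed to 927 to 1691 CPM in DIO and to 2604 to 3508 CPM in lean calli of d7. The part of these cell types in the Pparg difference was not tested.

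Of 9 genes tested for lipolysis and lipase control, 1 differed between diets on d7, against 2.32% of all genes: Lpl, the target of Angptl4. It was lower in DIO (-1.35 ± 0.29, edgeR, adjusted p = 0.0437), while Angptl4 was higher without passing the threshold, and it rose in DIO calli between d7 and d10 by 1.57 ± 0.28 (adjusted p = 0.000992). Gpihbp1, which carries LPL to the capillary wall, rose between d3 and d10 in lean calli (1.52 ± 0.21, adjusted p = 0.000711) and in DIO calli (1.45 ± 0.22, adjusted p = 0.000228). Of 14 other PPAR targets, 8 could be tested on d7 and 1 was called: Acot1, an acyl-CoA thioesterase, was higher in DIO (1.51 ± 0.33, adjusted p = 0.0487) and fell by 2.08 ± 0.34 between d7 and d10 in DIO calli (adjusted p = 0.000552). Over those same days the droplet genes of fat cells, Cidec (4.46 ± 0.85, adjusted p = 0.0019) and Plin1 (4.14 ± 0.97, adjusted p = 0.00833), rose. Adipocyte markers summed to 159 to 189 CPM on d7, 255 to 426 CPM on d10 and 908 to 990 CPM on d21 in DIO calli.

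Among 10 genes of fatty acid uptake and activation, 1 was called on average over d3 to d10, against 2.46% of all genes. This was Fabp3, the fatty acid binding protein of muscle and heart (higher in DIO, 1.12 ± 0.26, edgeR, adjusted p = 0.0295). From d10 to d21 in DIO calli, 5 of the 10 rose and 3 fell, where 21.7% of all genes were called higher and 21.8% lower. Acsl1 rose by 1.52 ± 0.25 (adjusted p = 0.000186), Acsl5 rose by 0.63 ± 0.13 (adjusted p = 0.00113) and Fabp3 fell by 2.43 ± 0.53 (adjusted p = 0.00165). All 11 muscle fibre markers had a positive average difference between diets, with a median of 0.35 and none called. From d10 to d21 in DIO calli 7 of the 11 were called lower, with a median log2 change of -2.25. The part of muscle in the Fabp3 values was not tested. Of 9 genes for pyruvate dehydrogenase and its kinases other than Pdk4, Pdk1 was the 1 gene called on average, 1.25-fold higher in DIO (0.32 ± 0.07, adjusted p = 0.0302). Of 13 genes of peroxisomal beta-oxidation, 6 fell and 1 rose from d10 to d21 in DIO calli, where 43.4% of all genes were called. Of 9 genes of fatty acid synthesis, 3 rose and 3 fell over the same days, with Scd1 2.56 ± 0.32 higher on the log2 scale (adjusted p = 1.95e-05).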

How the data were processed

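Poly(A) RNA of 30 calli was sequenced in paired ends on an Illumina NovaSeq. The authors trimmed reads, aligned them to GRCm38 with HISAT2 2.1.0 and counted them per gene with HTSeq, and the raw read counts were deposited. The strand setting, annotation and HTSeq version are not given in the sources used here. The table listed 43629 genes, of which 27445 had a count, and 13247122 to 26365620 reads were counted per library (median 16854427). Levels were TMM-scaled CPM. Differences were tested on the counts with the quasi-likelihood test of edgeR 4.0.16 in R 4.3.3 after filterByExpr, with Benjamini-Hochberg adjustment over all genes tested and a threshold of 0.05. The 3 libraries of a group were 1 callus each. Alternatives were RLE factors, DESeq2 1.42.0, no filter (at least 1 count), a replicate block, 1 fit of all 30 libraries, and each library left out. The scripts were tested on simulated data. Members, gene lists and marker lists were chosen with earlier results of these data known. Named genes were the members, the 3 genes most like each over 30 libraries among genes with a mean of at least 1 CPM, at most 3 called genes with the smallest adjusted p per pathway list and comparison, and at most the 3 most abundant genes of a marker list. 1 gene that this rule names is not reported here. Replicate numbers were checked for pairing and did not meet the rule set for it, so the mice were not treated as paired. Promoters came from RefSeq (GRCm38.p6). Sums of marker genes were added over TMM-scaled CPM. Some comparisons share calli: the diet differences of all days enter the average, and d10 calli enter several comparisons over time.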

Additional observations from a re-analysis of the deposited data

Results flagged for a closer look

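The diet difference of Angptl4 changed from d7 to d10 (edgeR, adjusted p = 0.0234), a contrast chosen after seeing the data. Between these days all 3 lean libraries lay higher on d10 and all 3 DIO libraries lay lower, and the log2 ratios of the group means differed by -1.97 between DIO and lean. Without lean d10 replicate 1, the lean callus with the highest chondrocyte sum, the change had an adjusted p of 0.101. The libraries of Cpt1a were all higher in DIO on d3 and all lower in DIO on d7, with a change of -0.52 in the log2 ratio of group means. That opposite order of libraries was not tested in itself, and the joint test of a change over the 4 days gave an adjusted p of 0.537.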

How the results depend on the processing

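All directions of the member values given above held under each alternative run. Counts of genes at an adjusted p under 0.05 moved by more than 1.5 times as follows, with the edgeR count in brackets, and the cause was not tested. With DESeq2, the counts over all genes were 726 for the diets on d3 (0), 1149 for the diets on d5 (170), 944 for the diets on d7 (366), 41 for the diets on d10 (0), 1077 for the average of the diets (419), 1151 for the change of the diet difference over 4 days (282), 2501 for the course by diet (1386), 4847 for any day in lean calli (3132), 1802 for lean d7 to d10 (450) and 1496 for the change of the diet difference from d7 to d10 (865). With DESeq2, the members called were 2 for the diets on d3 (0) (Angptl4, Ucp3), 1 for the diets on d7 (0) (Angptl4), 2 for the average of the diets (1) (Angptl4, Pdk4), 1 for the change of the diet difference over 4 days (0) (Angptl4), 2 for lean d3 to d10 (1) (Plin2, Ucp2), 1 for lean d7 to d10 (0) (Angptl4), 2 for DIO d7 to d10 (1) (Acadm, Angptl4) and 2 for the change of the diet difference from d7 to d10 (1) (Acadm, Angptl4). Without the filter on low counts, the counts over all genes were 515 for the diets on d3 (0), 565 for the diets on d5 (170), 724 for the diets on d7 (366), 29 for the diets on d10 (0), 633 for the average of the diets (419) and 503 for the change of the diet difference over 4 days (282). Without the filter on low counts, the members called were 2 for the diets on d3 (0) (Angptl4, Ucp3), 1 for the diets on d7 (0) (Angptl4), 2 for the average of the diets (1) (Angptl4, Pdk4), 1 for the change of the diet difference over 4 days (0) (Angptl4), 2 for DIO d3 to d10 (4) (Angptl4, Plin2) and 2 for DIO d7 to d10 (1) (Acadm, Angptl4). With all 30 libraries in 1 fit, the counts over all genes were 63 for the diets on d5 (170), 675 for the diets on d7 (366), 3 for the diets on d10 (0) and 1529 for lean d7 to d10 (450). With all 30 libraries in 1 fit, the members called were 0 for the diets on d5 (1), 1 for the diets on d7 (0) (Angptl4), 1 for DIO d3 to d10 (4) (Plin2) and 0 for DIO d7 to d10 (1). With RLE factors, no count moved by that much. With the replicate number as a block, the counts over all genes were 325 for the diets on d3 (0), 0 for the diets on d5 (170) and 1479 for lean d7 to d10 (450). With the replicate number as a block, the members called were 2 for the diets on d3 (0) (Angptl4, Ucp3), 0 for the diets on d5 (1), 1 for the diets on d7 (0) (Angptl4), 2 for lean d3 to d10 (1) (Plin2, Ucp2) and 2 for DIO d3 to d10 (4) (Cpt1a, Plin2). With 1 library left out, the counts over all genes were 0 to 237 for the diets on d3, 0 to 935 for the diets on d5, 29 to 936 for the diets on d7, 0 to 10 for the diets on d10, 32 to 1485 for the average of the diets, 0 to 602 for the change of the diet difference over 4 days, 619 to 1983 for the course by diet, 1678 to 3130 for any day in lean calli, 2863 to 5016 for lean d3 to d10, 24 to 1141 for lean d7 to d10, 8899 to 10539 for any day in DIO calli, 2184 to 3975 for DIO d3 to d10, 1510 to 2495 for DIO d7 to d10, 5666 to 7674 for DIO d10 to d21 and 257 to 1660 for the change of the diet difference from d7 to d10. The members called were then 0 to 0 for the diets on d3, 0 to 1 for the diets on d5, 0 to 1 for the diets on d7, 0 to 0 for the diets on d10, 0 to 2 for the average of the diets, 0 to 1 for the change of the diet difference over 4 days, 1 to 1 for the course by diet, 0 to 0 for any day in lean calli, 0 to 2 for lean d3 to d10, 0 to 0 for lean d7 to d10, 5 to 6 for any day in DIO calli, 1 to 5 for DIO d3 to d10, 0 to 2 for DIO d7 to d10, 2 to 3 for DIO d10 to d21 and 0 to 2 for the change of the diet difference from d7 to d10. Calli with the same replicate number did not all deviate together (correlations from -0.398 to 0.365 over 84 same-number pairs of the 24 libraries of d3 to d10). Among the lean libraries alone, 18 same-number pairs ran from -0.152 to 0.365. Their median was 0.114, against -0.057 for other pairs. Pairing was accepted only if every same-number pair correlated above a set limit, which no set of groups met. The block is therefore given as an alternative only. The 1 fit of all 30 libraries was not run for the average of the diets or the course by diet. It was also not run for the change of the diet difference, over 4 days or from d7 to d10. With 3 calli a group, a difference that missed the threshold is not shown to be absent. The counts of Cpt1b, from which reads shared with Gm44502 may be missing, were too few to judge its differences. The p-values measure the spread between single calli of 1 experiment.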
